A study of Bos taurus with 46 samples.

Results

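Reference genes are the transcripts against which other transcripts are measured, and 10 of them were followed here through every library of the series. They were taken by symbol from the table of 30675 NCBI genes. The first 8, *ACTB*, *GAPDH*, *YWHAZ*, *SDHA*, *HPRT1*, *PPIA*, *TBP* and *GUSB*, are reference genes in common use, and the other 2, *ECD* and *VPS35L*, are normalizers that the study picked for its qRT-PCR. All 10 were present and all 10 passed the filter on low counts in every comparison, with at least 348 reads in each library. RNA came from blood leukocytes of 23 pregnant Angus crossbred heifers, sampled on D55 and again on D105 of gestation, which gave 46 libraries. The heifers carried fetuses conceived by artificial insemination (AI, n = 8) or from in vitro produced embryos, and the latter were divided by fetal weight at collection into IVP-Normal (n = 6) and IVP-LOS (n = 9, large offspring syndrome). The heifers were young, the in vitro embryos were all sired by 1 Brahman bull, and all heifers had estrus synchronized with a progesterone device and prostaglandin and were given gonadotropin releasing hormone. IVP heifers received 2 embryos each by transfer, and some of them carried 2 fetuses, whereas each AI heifer carried 1. Heifer 604 carried 2 fetuses and heifer 664 carried 1. The groups are named for the fetus while the RNA is the mother's. A figure legend of the study places the D55 bleeding in winter and that of D105 in summer. Its text names autumn, spring and summer, and estrus was synchronized in 2 rounds, in November and in February. The labels give neither round nor season of a library, so day and season cannot be told apart. The IVP-LOS fetuses of heifers 604 and 664 were the heaviest, and the study also singled these dams out because their transcriptomes clustered apart, so a contrast of the pair with the other 21 is not independent of these data.

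A qRT-PCR result is the level of a test gene divided by that of a reference gene, so any movement of the reference gene passes into the result with its sign turned. Genes of basic cell functions are used for this purpose because every nucleated cell needs them. Leukocytes are a mixture of cell types that differ in metabolism, so a gene steady within each cell type can still vary in whole blood when the mixture changes. In bulk RNA a smaller number of cells of one type and less RNA per cell cannot be told apart.

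On D105, 3 libraries, all of IVP-LOS heifers, stood apart from the others. In 604 and 664, the share of reads that fell on no gene was 38% and 36.1%, against a median of 27.0% over the 46 libraries. This share is among reads on genes, on no gene or ambiguous between genes, and leaves out all other reads. The summed level of 7 neutrophil markers in these 2 libraries was 615 and 575 CPM (read counts scaled to a common library size), below the lowest of the other 21 (1132 CPM), and 6 monocyte markers summed to 207 and 391 CPM, below 546 CPM in the others. The level of 5 platelet markers was 5786 CPM in 604, above the highest of the other 21 (1511 CPM), whereas 664 had 776 CPM. The D105 library of heifer 637 lay at the opposite end, with 14100 CPM of neutrophil markers. Reads on genes ranged from 18692653 to 24502012 per library. In the labels the D105 libraries of AI and IVP-LOS heifers form a set named BACKUP (17 libraries) and the remaining 29 a set named New, so day and set cannot be told apart within AI or within IVP-LOS heifers. Markers of all 8 blood cell types on the lists were detected, leukocyte markers among them, and 1 of 5 erythroid markers had no read in any library.

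The genes differed in how steady they were. Spread is given as the coefficient of variation (CV), the SD over the mean of CPM scaled by trimmed mean of M values (TMM). Over 46 libraries it was lowest for *YWHAZ* (0.0632), followed by *ECD* (0.0702), *VPS35L* (0.0829), *GUSB* (0.0850) and *PPIA* (0.0983). These 5 of 10 lay at or under 0.10, the limit that the study applied to its normalizers, and 8.78% of 16487 tested genes did so. Since *ECD* and *VPS35L* were chosen for a low CV in the D105 libraries, which are among these 46, their places here in part restate that choice. The other 5 were *SDHA* (0.103), *ACTB* (0.115), *TBP* (0.120), *GAPDH* (0.167) and *HPRT1* (0.197). *PPIA* and *SDHA* are the genes just inside and just outside the limit. The median CV of all tested genes was 0.244, above each of the 10. The tested genes include ones with fewer reads than the 10, where counting error adds more to the CV. They were not matched by level. *YWHAZ* had a lower CV than all but 0.594% of the tested genes, whereas 41.1% varied less than *HPRT1*. Counting error alone would give a CV of 0.0430 for *TBP* and 0.0429 for *ECD*, the genes with the fewest reads, and of 0.00276 for *ACTB*.

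**Figure D1:**
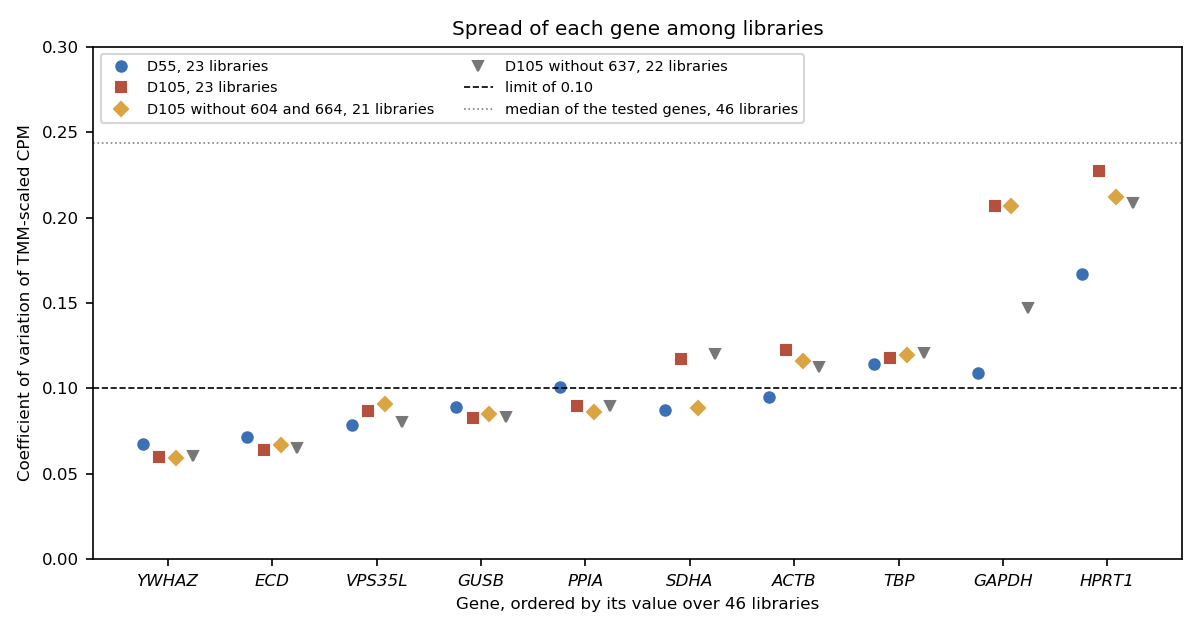
Coefficient of variation (vertical axis, SD over mean of TMM-scaled CPM) of each gene on D55, on D105, on D105 without heifers 604 and 664, and on D105 without heifer 637, with the limit of 0.10 dashed and the median of the tested genes dotted. *YWHAZ* and *ECD* sit lowest on both days, *SDHA* falls from 0.117 to 0.0886 without 604 and 664, and *GAPDH* from 0.207 to 0.147 without 637.

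On D55, 6 of the 10 genes had a CV of at most 0.10, beside 15.7% of all tested genes. On D105 there were 5 of 10, beside 8.62%. The study chose *ECD* and *VPS35L* by their D105 values, so those are no finding, whereas D55 played no part in that choice. On D55 the CV of *ECD* was 0.0718 and that of *VPS35L* 0.0786, the lowest after *YWHAZ*. *NFKBIB*, an inhibitor of NF-kappa-B signalling that the study used as a further normalizer, had a CV of 0.134 on D55 and 0.112 on D105 on this scale. *GAPDH* went from 0.109 on D55 to 0.207 on D105 and *HPRT1* from 0.167 to 0.228, and the difference between days was not tested. Without 604 and 664 the D105 count was 6 of 10, beside 11.4% of all tested genes, because *SDHA* came under the limit. Leaving out any single heifer kept the D105 CV of *YWHAZ* between 0.0551 and 0.0613 and that of *ECD* between 0.0497 and 0.0654, so the order of these neighbours depends on single libraries. *GUSB* (0.0765 to 0.0844), *VPS35L* (0.0781 to 0.0887) and *PPIA* (0.0803 to 0.0915) likewise overlapped one another. Among the 17 BACKUP libraries of D105 alone the CV was 0.0456 for *ECD*, 0.0631 for *YWHAZ*, 0.125 for *SDHA*, 0.218 for *GAPDH* and 0.248 for *HPRT1*. *YWHAZ* had the lowest CV of the 10 on each day as a whole, but not in every group. Its rank was 6 in AI on D55 (0.0809) and in IVP-LOS on D105 without 604 and 664 (0.0821).

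Spread within a day and a group made up most of these values. Pooled within the 6 combinations of day and group, the CV of *YWHAZ* was 0.0659, and its 6 group means differed by at most 1.03-fold. *ECD* had a pooled CV of 0.0655 and *HPRT1* of 0.199, both close to the values over all libraries. The group means of *GAPDH* differed by up to 1.16-fold, from 807.7 CPM in IVP-Normal on D105 to 937 CPM in AI on D105, and those of *HPRT1* by up to 1.16-fold as well. Without 604 and 664 the pooled CV of *SDHA* fell from 0.104 to 0.0797. Within IVP-LOS on D105 the CV was 0.294 for *GAPDH*, 0.289 for *HPRT1* and 0.152 for *SDHA*. In that group, *GAPDH* had a CV of 0.0888 without 637 and *HPRT1* of 0.227.

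**Figure D2:**
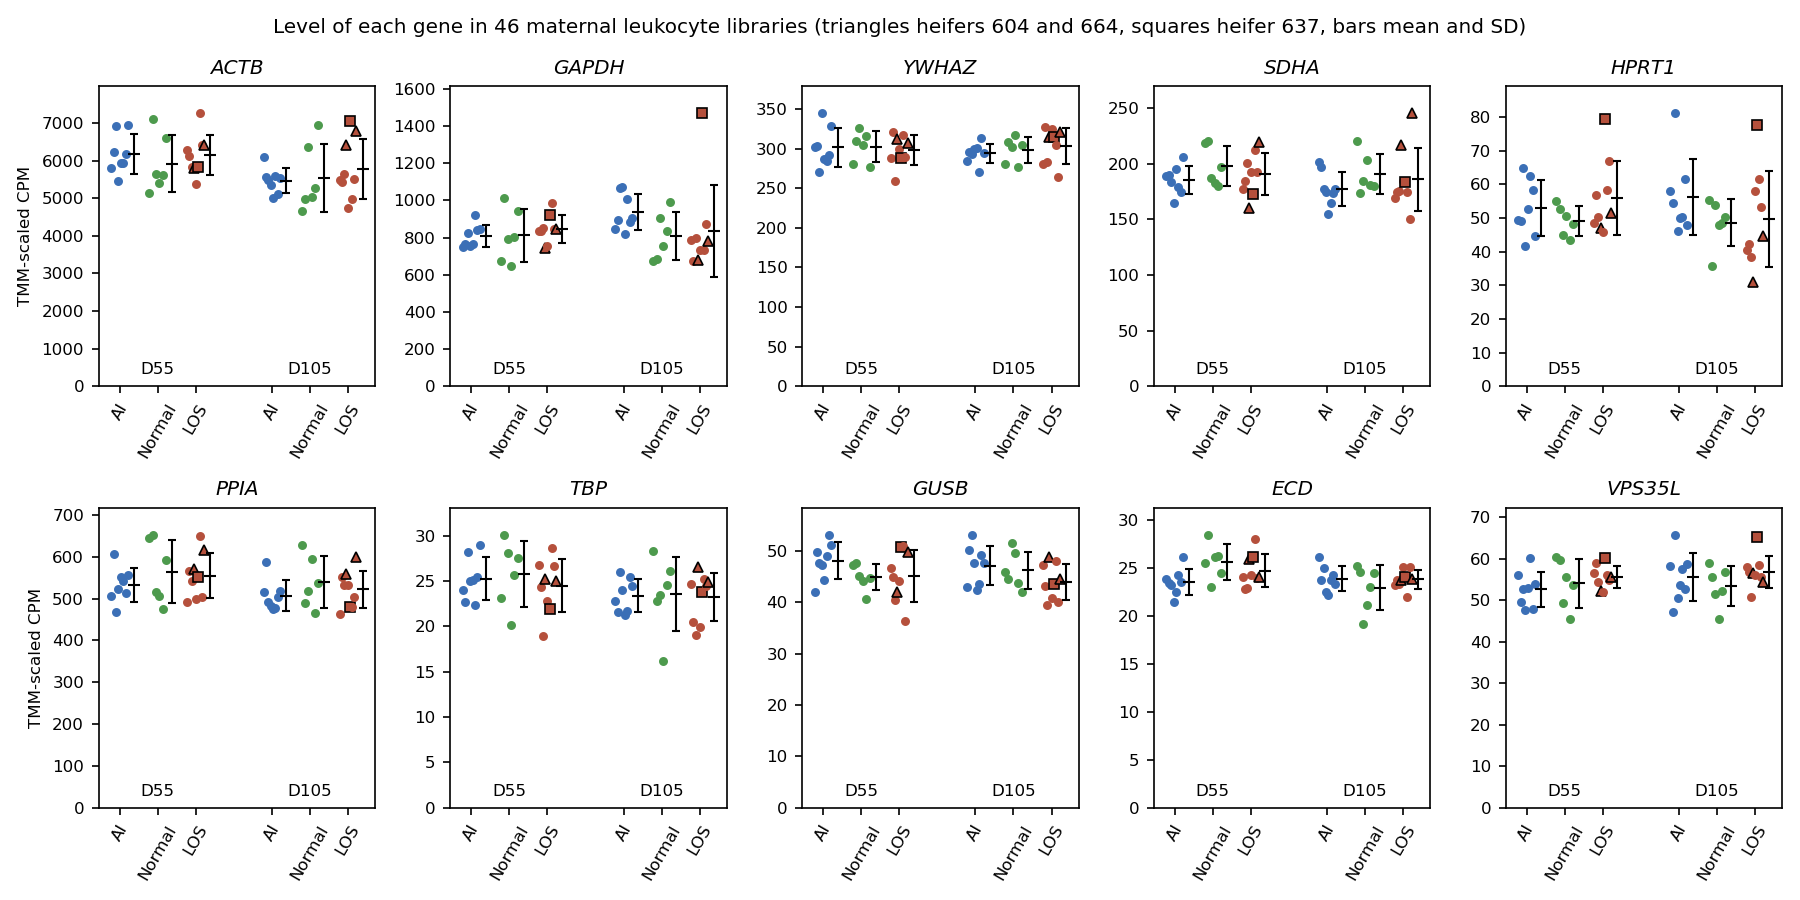
Level of each gene (vertical axis, TMM-scaled CPM from 0) in each library by day and group, with the mean and SD of each group as black bars, heifers 604 and 664 as triangles and heifer 637 as squares. *YWHAZ* and *ECD* form flat bands, 637 is alone at 1469 CPM of *GAPDH* on D105, and both triangles stand high for *SDHA* on D105.

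*YWHAZ* encodes the zeta isoform of a family of adaptor proteins that bind phosphorylated partners. It averaged 299.6 ± 18.9 CPM (SD, n = 46), from 259.6 CPM in 602 on D55 to 345 CPM in 590 on D55. In AI heifers it ranged from 271 to 345 CPM on D55 (median 297) and from 269.9 to 313 CPM on D105 (median 295). In IVP-LOS heifers the range was 259.6 to 321 CPM on D55 (median 300.0) and 264 to 328 CPM on D105 (median 315), so all groups overlapped on both days. On D105, 604 had 315 CPM and 664 had 321 CPM, within the range of the other 21 (264 to 328 CPM).

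*GUSB*, the lysosomal enzyme beta-glucuronidase, averaged 45.8 ± 3.89 CPM (SD, n = 46) with extremes of 36.3 CPM in 663 on D55 and 53.1 CPM in 546 on D105. *PPIA*, the prolyl isomerase cyclophilin A, averaged 536 ± 52.7 CPM (SD, n = 46) and ran from 463 CPM in 512 on D105 to 653 CPM in 560 on D55. The ranges of the 3 groups overlapped on each day for both genes. *GUSB* was 48.7 CPM in 604 and 44.6 CPM in 664 on D105, and *PPIA* 559.7 and 599 CPM, all inside the range of the other heifers.

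*ECD*, a cell cycle regulator that also works in pre-mRNA splicing, averaged 24.5 ± 1.76 CPM on D55 and 23.6 ± 1.51 CPM on D105 (SD, n = 23 each). Its lowest value was 19.1 CPM in the IVP-Normal heifer 628 on D105, and without that library the D105 CV was 0.0497. *VPS35L*, a subunit of the retriever complex that returns membrane proteins from endosomes to the cell surface, averaged 54.2 ± 4.26 CPM on D55 and 55.6 ± 4.82 CPM on D105 (SD, n = 23 each). On D105, *ECD* was 23.8 CPM in 604 and 23.9 CPM in 664 around a median of 23.8 CPM in the others. *VPS35L* was 56.7 and 54.5 CPM around 56.1 CPM. These D105 values restate the study's choice.

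*ACTB*, cytoplasmic beta-actin, averaged 6098 ± 578 CPM on D55 and 5609 ± 688 CPM on D105 (SD, n = 23 each). In AI heifers it lay between 5471 and 6938 CPM on D55 (median 6060.0) and between 5009 and 6090.0 CPM on D105 (median 5502), with overlap between the days. On D105, 604 had 6405 CPM and 664 had 6788 CPM, each exceeded by 2 of the other 21. Heifer 637 was the highest of all on that day with 7062 CPM. *TBP*, the TATA-binding protein of the basal transcription machinery, averaged 25.1 ± 2.86 CPM on D55 and 23.4 ± 2.76 CPM on D105 (SD, n = 23 each). Its lowest library was that of 633 on D105 (16.2 CPM), without which the D105 CV was 0.0979.

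*SDHA* encodes the flavoprotein subunit of succinate dehydrogenase, which links the citric acid cycle to the respiratory chain. On D55 the other 21 heifers ranged from 165 to 220.3 CPM (median 189), with 604 below all of them at 160.3 CPM and 664 near the top at 219 CPM. On D105 the other 21 ranged from 151 to 221 CPM (median 177), while 664 was above all of them at 245 CPM and 604 was exceeded by 1 heifer, at 217 CPM. The pair thus lay at opposite ends on D55 and at the same end on D105. Between the days the level in 604 went up by 0.43 (log2), the largest increase of the 23 heifers.

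*GAPDH*, the glycolytic glyceraldehyde-3-phosphate dehydrogenase, averaged 825 ± 90.1 CPM on D55 and 864 ± 179 CPM on D105 (SD, n = 23 each). Heifer 637 went from 919 CPM on D55 to 1469 CPM on D105, when the highest of the other 8 IVP-LOS heifers had 876 CPM. *HPRT1*, the hypoxanthine phosphoribosyltransferase of purine salvage, averaged 53.2 ± 8.88 CPM on D55 and 51.7 ± 11.8 CPM on D105 (SD, n = 23 each). It was lowest in 604 on D105 (30.9 CPM) and highest in the AI heifer 546 on D105 (81.1 CPM), a 2.63-fold range. Heifer 637 was high in *HPRT1* on both days, at 79.4 and 77.8 CPM.

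**Figure D3:**
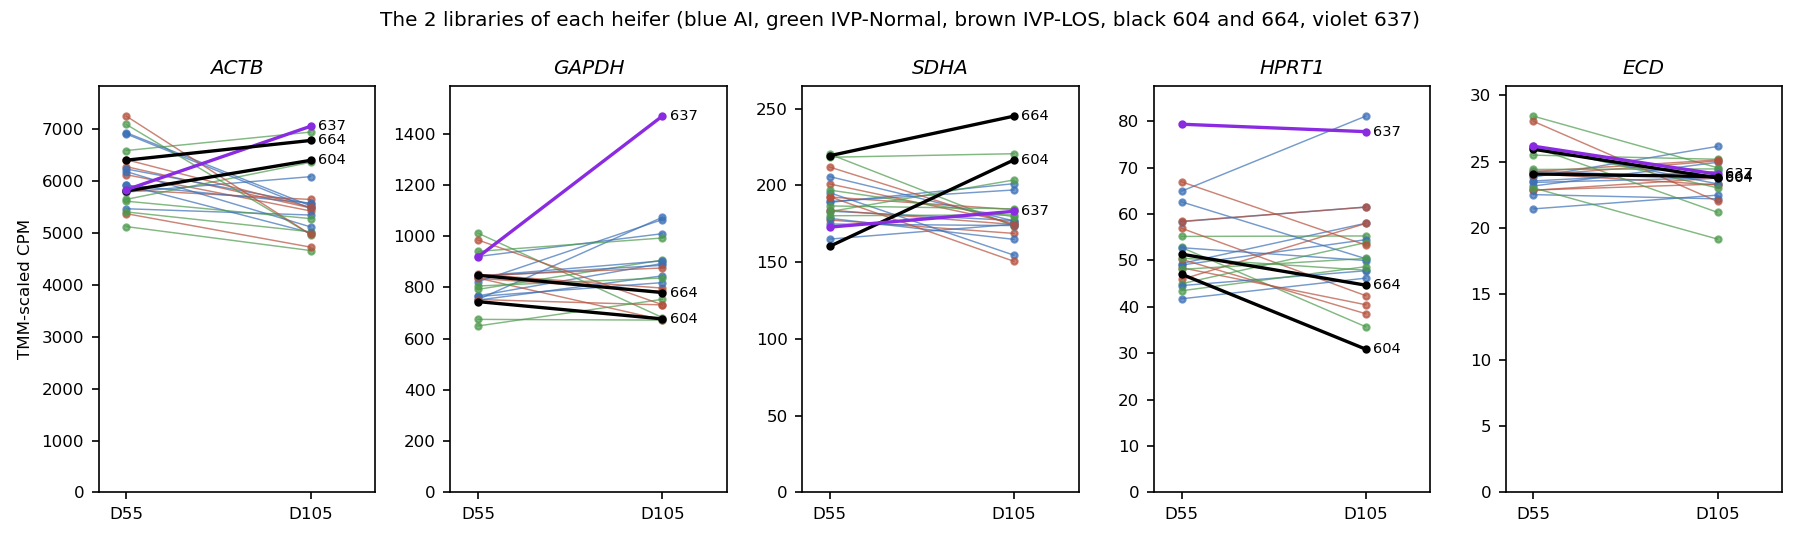
Level (vertical axis, TMM-scaled CPM from 0) of 5 genes in the D55 and D105 libraries of each heifer, joined by a line, with 604 and 664 in black and 637 in violet. *SDHA* goes up in 604 and 664, *GAPDH* goes up in 637, and the lines of *ECD* stay between 19.1 and 28.4 CPM.

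D105 was next compared with D55, which asks whether a gene can serve across the 2 bleedings. In a fit that did not pair the libraries of a heifer, edgeR's quasi-likelihood F-test called none of the 10 genes over all 23 heifers. At a Benjamini-Hochberg adjusted p (FDR) of at most 0.05 it called 20.7% of 16487 tested genes. One of the 10 had an unadjusted p under 0.05, and DESeq2 called 0. The log2 fold change was -0.12 ± 0.05 (SE) for *ACTB* (FDR = 0.0706) and -0.10 ± 0.05 for *TBP* (FDR = 0.178). *ACTB* was lower on D105 in 17 of 23 heifers and *TBP* in 18 of 23. That fit treats the 2 libraries of a heifer as separate. With heifer as a block, which uses that both libraries come from the same animal, 31.7% of genes were called. These included *ACTB* (-0.12, FDR = 0.0355) and *TBP* (-0.10, FDR = 0.0290). *ACTB* was also called without 604 and 664 (-0.14, FDR = 0.0356, beside 20.5% of all genes) and without the D105 library of 637 (-0.14, FDR = 0.0362, beside 19.8%). For *YWHAZ* the log2 fold change was -0.01 with a 95% interval of -0.07 to 0.05, for *GUSB* -0.01 (-0.09 to 0.06), for *VPS35L* 0.04 (-0.04 to 0.11) and for *ECD* -0.06 (-0.12 to 0.01). The median size of the change was 0.05 over the 10 genes and 0.12 over all genes tested, both as absolute log2 values.

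Within AI heifers none of the 10 passed the test, beside 9.95% of all genes. Of the 10, 2 had an unadjusted p under 0.05, beside 3452 of all 15248 genes. *GAPDH* was 809 ± 60.2 CPM on D55 and 937 ± 98.6 CPM on D105 (SD, n = 8 each). All 8 AI heifers were higher on D105. Its log2 fold change was 0.22 ± 0.07 (FDR = 0.0568). *GAPDH* was called with heifer as a block (0.21, FDR = 0.0319, beside 17.1% of all genes called) and by DESeq2 (0.22, FDR = 0.0182, beside 12.9%). *ACTB* was lower in 7 of 8 AI heifers (-0.17 ± 0.07, FDR = 0.127). It was called by DESeq2 (-0.17, FDR = 0.0315, beside 12.9% of all genes) and after upper-quartile scaling (-0.21, FDR = 0.0463, beside 11%). All 7 neutrophil markers tested rose with day in AI heifers, with a median log2 fold change of 1.57, and the part of this shift in the *GAPDH* difference was not tested.

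In IVP-Normal heifers, where both days belong to the set New, 0 of 10 were called beside 2.45% of all genes, and with the block 0 of 10 beside 5.5%. In IVP-LOS heifers the counts were 0 of 10 beside 0.251%, and with the block 0 of 10 beside 1.07%. DESeq2 called none of the 10 in either group, beside 4.91% of all genes in IVP-Normal and 2.14% in IVP-LOS. No unadjusted p of the 10 was under 0.05. *GAPDH* was higher on D105 in 4 of 6 IVP-Normal heifers (log2 fold change -0.01) and in 2 of 9 IVP-LOS heifers (also -0.01). The IVP-LOS value rested on heifer 637, without whose D105 library it was -0.15 (FDR = 0.319). The day change of IVP-LOS minus that of AI was -0.22 ± 0.15 for *GAPDH* (FDR = 0.913) and -0.25 ± 0.21 for *HPRT1* (FDR = 0.915) and passed the test for neither gene. Without the D105 library of 637 these differences were -0.38 for *GAPDH* (FDR = 0.216) and -0.37 for *HPRT1* (FDR = 0.396). None of the 10 and 0% of all 16018 genes were called for that difference by edgeR, where 795 genes had an unadjusted p under 0.05, and DESeq2 also called 0.

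**Figure D4:**
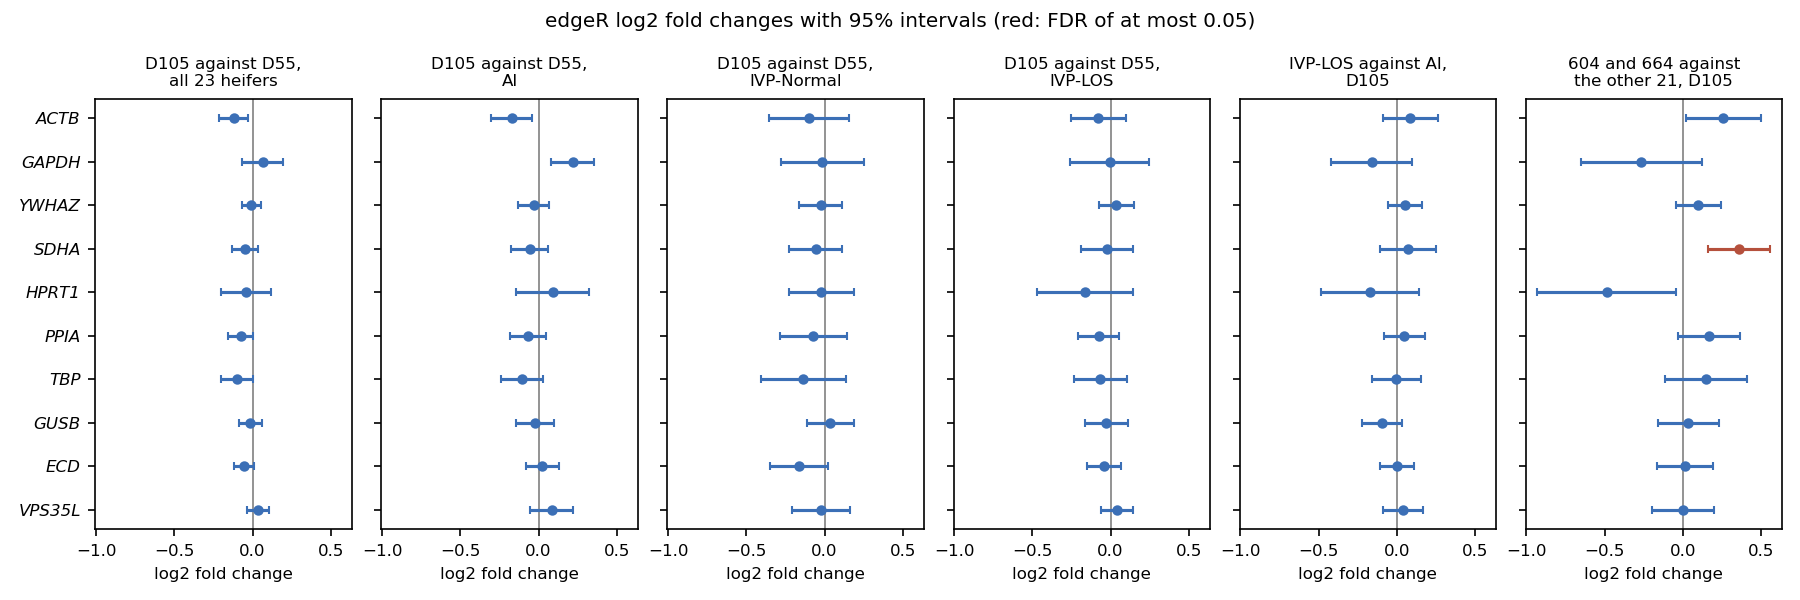
Log2 fold changes (horizontal axis, with 95% intervals) of the 10 genes in 6 comparisons from edgeR's quasi-likelihood fits without heifer as a block. Red marks an FDR of at most 0.05, which only *SDHA* reaches, in heifers 604 and 664 against the other 21 on D105.

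Treatment groups were compared within each day. None of the 10 genes differed between IVP-Normal and AI, between IVP-LOS and AI or between IVP-LOS and IVP-Normal on D55, where 0% of all genes were called in each comparison. The same 3 comparisons on D105 also called 0 of 10 beside 0% of all genes. None of the 10 had an unadjusted p under 0.05 in any of these 6 comparisons, against 501 to 1522 of all genes, and DESeq2 called none of the 10 and 1 to 14 of all genes. The largest differences were those of *HPRT1* between IVP-LOS and IVP-Normal on D55 (0.21 ± 0.12, FDR = 0.839) and *GAPDH* between IVP-Normal and AI on D105 (-0.21 ± 0.10, FDR = 0.514). In the latter, and in IVP-LOS against IVP-Normal on D105, group and library set cannot be told apart. For *YWHAZ* the 95% intervals of the 6 differences lay between -0.13 and 0.18, and for *HPRT1* between IVP-LOS and AI on D105 the interval was -0.49 to 0.14, which leaves room for differences in either direction.

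Heifers 604 and 664 were then set against the other 21. On D55 none of the 10 differed, beside 0.0179% of all genes, with no unadjusted p under 0.05 and none called by DESeq2. The D55 values were 0.03 ± 0.09 for *ECD* and -0.01 ± 0.09 for *VPS35L*, and for *SDHA* the 95% interval was -0.19 to 0.18. On D105, 1 of the 10 was called, beside 21.1% of all genes. *SDHA* was 1.29-fold higher in the pair (log2 0.36 ± 0.10, FDR = 0.0162). It was also called among the BACKUP libraries alone (0.40, FDR = 0.00485), beside 29.9% of all genes. Against the other 7 IVP-LOS heifers it was called as well (0.41, FDR = 0.0411), beside 9.05% of all genes. Both fits use the same libraries of the pair. With 664 alone in the pair the value was 0.46 (FDR = 0.0615), and with 604 alone 0.26 (FDR = 0.262), where the lone library is assumed to vary like the other 21. The summed B cell markers of the other 21 ran from 1163 to 4218 CPM (median 2497 CPM). Heifer 604 was within this range at 3707 CPM and 664 above it at 4880 CPM. The part of these markers in the *SDHA* difference was not tested.

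*HPRT1* and *ACTB* had unadjusted p-values under 0.05 in this comparison, as did 6305 of all genes, but were not called. The log2 difference of *HPRT1* was -0.49 ± 0.23 (FDR = 0.120), with 604 below and 664 within the range of the other 21 (35.7 to 81.1 CPM). *ACTB* differed by 0.26 ± 0.12 (FDR = 0.120) and *GAPDH* by -0.26 ± 0.20 (FDR = 0.337). The values of the study's normalizers, 0.02 for *ECD* and 0.00 for *VPS35L*, follow from their selection. For *YWHAZ*, which was not selected that way, the difference was 0.10 with a 95% interval of -0.05 to 0.25. For *GUSB* it was 0.04 ± 0.10 (FDR = 0.808). The median absolute log2 difference was 0.16 over the 10 genes and 0.39 over all genes tested. In 13.8% of all genes tested both heifers lay outside the range of the others on the same side, which held for none of the 10.

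Ratios between the genes do not depend on how libraries are scaled. For each pair of genes the SD of the log2 ratio over 46 libraries was taken and averaged per gene over its 9 partners. This average was smallest for *ECD* (0.177) and *VPS35L* (0.187), then *YWHAZ* (0.188), *GUSB* (0.191) and *PPIA* (0.193), and largest for *GAPDH* (0.244) and *HPRT1* (0.291). The places of *ECD* and *VPS35L* in part restate their selection on D105. On D55 alone, in libraries of the same heifers and so not independent of that selection, *ECD* was again lowest (0.154). *ACTB* came next (0.157), then *VPS35L* (0.163), and *YWHAZ* came eighth (0.178). The pair with the steadiest ratio over 46 libraries was *SDHA* and *PPIA* (0.113), and the least steady was *SDHA* and *HPRT1* (0.319). On D55 it was *ACTB* and *GAPDH* that had the steadiest ratio (SD 0.107), and on D105 the SD of that ratio was 0.237. *SDHA* ranked sixth over all libraries (0.196) and second without 604 and 664 (0.183).

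The choice of the denominator altered the fold of the study's test genes. *TTF1*, a transcription termination factor, and *RSRC1*, a splicing protein, were selected by the study as higher in 604 and 664 on D105, so their values are a description. Divided by the mean of *ECD*, *NFKBIB* and *VPS35L*, *TTF1* was 2.5-fold the mean of the other 21 in 604 and 3.0-fold in 664. The range of the other 21 was 0.772 to 1.28. With *SDHA* as the denominator the values were 2.08 and 2.18, and with *HPRT1* they were 4.12 and 3.38. *YWHAZ* gave 2.37 and 2.76, and the geometric mean of the 8 common reference genes 2.53 and 2.77. *RSRC1* divided by the mean of the 3 normalizers was 2.44-fold in 604 and 3.06-fold in 664, by *SDHA* 2.05 and 2.24, and by *HPRT1* 4.05 and 3.46. With each of the 10 denominators, both heifers were above the highest of the other 21 for both test genes. The denominator also set the background, since the CV of *TTF1* among the other 21 was 0.153 over *SDHA* and 0.281 over *HPRT1*.

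Several genes moved with cell type markers across heifers. Each of the 10 was correlated with the summed markers of 8 cell types on each day, 160 relations in all over 23 heifers, with permutation p-values adjusted over the 160. On D105, *GAPDH* followed the neutrophil sum (Pearson r = 0.835, permutation p = 1e-05, the smallest that the permutations can give, adjusted p = 0.0016, Spearman rho = 0.862, permutation p = 1e-05, adjusted p = 0.0008). Without the 2 heifers farthest from the median of the markers r was 0.820, and without 604, 664 and 637 it was 0.819. Within the 17 BACKUP libraries r was 0.882, and within the 6 New ones 0.715. *GAPDH* on D105 also followed the monocyte sum (r = 0.765, permutation p = 7e-05, adjusted p = 0.00288, rho = 0.838, permutation p = 1e-05, adjusted p = 0.0008, and 0.818 without the 2 farthest heifers), with 0.765 within the BACKUP and 0.772 within the New libraries. With the B cell sum the relation was negative (r = -0.661, permutation p = 0.00067, adjusted p = 0.0134, rho = -0.648, permutation p = 0.00112, adjusted p = 0.0358, and -0.676 without the 2 farthest), with -0.634 and -0.752 within these sets. On D55 the relation to the neutrophil sum did not pass (r = 0.457, permutation p = 0.0285, adjusted p = 0.163, rho = 0.370, permutation p = 0.0844, adjusted p = 0.398). *HPRT1* followed the monocyte sum on D55 (r = 0.718, permutation p = 0.0002, adjusted p = 0.00457, rho = 0.546, permutation p = 0.00779, adjusted p = 0.104) and on D105 (r = 0.734, permutation p = 5e-05, adjusted p = 0.00288, rho = 0.631, permutation p = 0.00154, adjusted p = 0.0411). Leaving out the 2 farthest heifers gave 0.522 on D55 and 0.652 on D105. Without 604, 664 and 637 the D105 value was 0.567. On D105 r was 0.816 within the BACKUP libraries and 0.176 within the 6 New ones, which are the IVP-Normal heifers and too few to place the relation there, and the sets were not compared by a test.

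*SDHA* followed the B cell sum on D55 (r = 0.724, permutation p = 9e-05, adjusted p = 0.00288, rho = 0.703, permutation p = 0.00024, adjusted p = 0.0128) and on D105 (r = 0.710, permutation p = 9e-05, adjusted p = 0.00288, rho = 0.617, permutation p = 0.00226, adjusted p = 0.0452). Without 604, 664 and 637 the D105 value was 0.621, and without the 2 farthest heifers it was 0.663 on D55 and 0.712 on D105. On D105 it was 0.674 within the BACKUP libraries and 0.896 within the New ones. Its relation to the T cell sum on D105 was negative (r = -0.603, permutation p = 0.00223, adjusted p = 0.0337, rho = -0.619, permutation p = 0.00202, adjusted p = 0.0452, and -0.547 without the 2 farthest), with -0.559 within the BACKUP and -0.812 within the New libraries. *PPIA* also followed the B cell sum on D105 (r = 0.701, permutation p = 0.00014, adjusted p = 0.00373, rho = 0.658, permutation p = 0.0009, adjusted p = 0.0358, and 0.698 without the 2 farthest). Within the sets r was 0.735 (BACKUP) and 0.756 (New). In all, 13 of 160 relations had an adjusted Pearson p of at most 0.05, and they involved *GAPDH*, *HPRT1*, *SDHA* and *PPIA*. In 8 of them the adjusted Spearman p was also at most 0.05. None of the relations of *ACTB*, *YWHAZ*, *TBP*, *GUSB*, *ECD* or *VPS35L* had an adjusted Pearson p of at most 0.05. The nearest was that of *ACTB* to the erythroid sum on D105 (r = 0.556, permutation p = 0.00525, adjusted p = 0.06, and 0.680 without 604, 664 and 637). *GUSB* had r = 0.472 with the natural killer sum on D55 and 0.470 on D105. A relation that did not pass over 23 heifers is not shown to be absent.

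**Figure D5:**
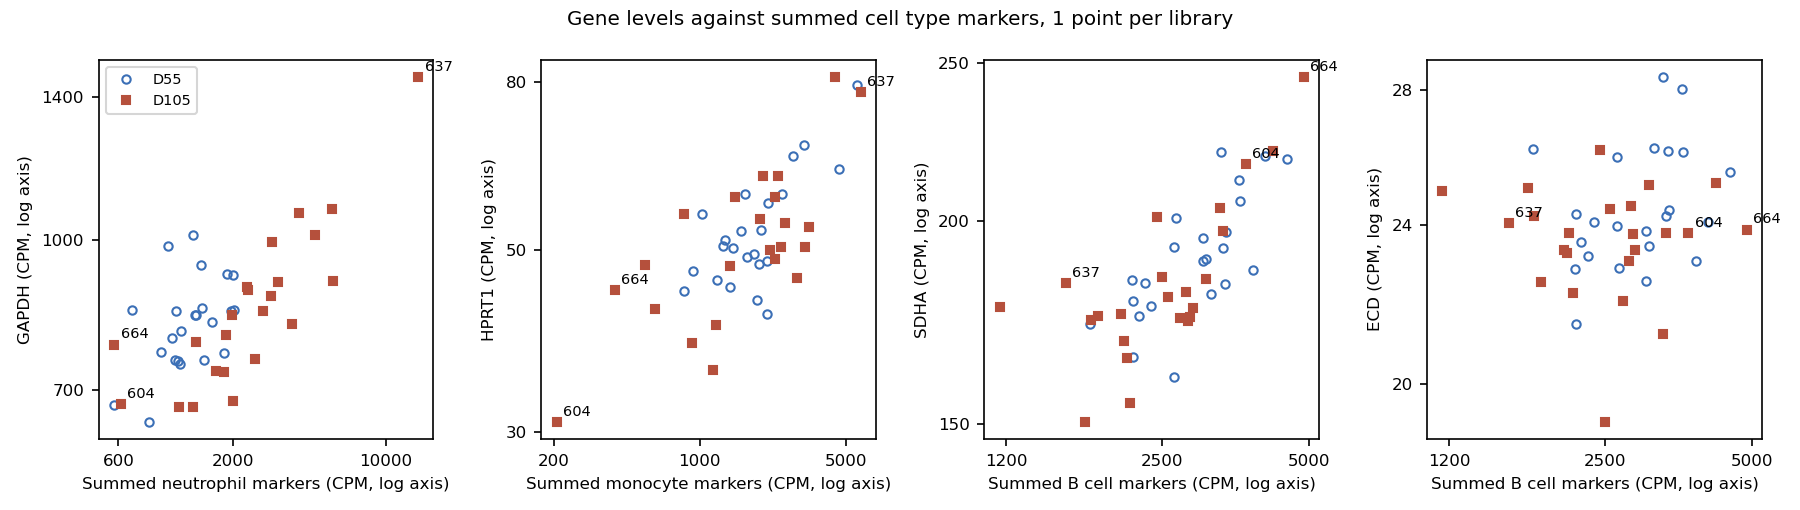
Level of a gene (vertical log axis, CPM) against the summed level of a marker list (horizontal log axis, CPM), 1 point per library, with D55 as open circles and D105 as squares. *GAPDH* climbs with neutrophil markers on D105, *HPRT1* with monocyte markers and *SDHA* with B cell markers, whereas *ECD* against the B cell markers shows a level cloud.

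The relatives of each gene were described from fixed lists, and each count of called genes between the days is to be read beside the 20.7% of all genes called. Among 17 glycolysis genes, 2 rose and 0 fell from D55 to D105 over all heifers, *HK3* (0.61, FDR = 0.00995) and *ALDOA* (0.27, FDR = 0.0111). *HK3* is a hexokinase of myeloid cells and *ALDOA* an aldolase. Their median CV over 46 libraries was 0.174, and no glycolysis gene was at or under 0.10. Of 26 actin cytoskeleton genes 2 fell, the crosslinker *FLNA* (-0.31, FDR = 0.00104) and the gamma-actin gene *ACTG1* (-0.18, FDR = 0.0240), and none rose. Among 16 genes of basal transcription, *TAF13* (-0.31, FDR = 3.94e-06) and *TAF11* (-0.16, FDR = 0.00158) were among 3 that fell and *GTF2B* was the 1 that rose (0.18, FDR = 0.000191). Each median change of these 3 lists lay between -0.02 and -0.01, beside -0.02 for all genes.

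Beside the same 20.7% of all genes called, of 6 relatives of *YWHAZ* 1 rose with day, the epithelial isoform *SFN* (0.91, FDR = 0.000761), and 3 fell, including *YWHAG* (-0.28, FDR = 0.00999) and *YWHAQ* (-0.25, FDR = 0.000243). Their median CV was 0.146, and 1 of the 6, *YWHAB* (0.0728), was at or under 0.10. Of 14 subunits of the retriever and the CCC complex that works with it, 4 fell and none rose with day, among them *COMMD2* (-0.33, FDR = 4.91e-05) and *COMMD8* (-0.26, FDR = 1.8e-06). Their median change was -0.03. Of 8 partners of *ECD* in splicing and protein complex assembly, 1 rose (*PIH1D1*, 0.17, FDR = 0.00943) and 2 fell (*AAR2*, -0.23, FDR = 0.000470, and *EFTUD2*, -0.17, FDR = 0.00125). *VPS35L* and *ECD* themselves were not called between the days, and the difference between them and their partners was not tested.

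The remaining lists gave few calls between the days. Of 12 purine genes 2 fell (*GART*, -0.27, FDR = 0.00290, and *IMPDH1*, -0.16, FDR = 0.0343), and of 10 tested cyclophilins 1 fell (*PPIF*, -0.21, FDR = 0.0300). None of 7 succinate dehydrogenase genes (smallest FDR 0.212, *SDHAF1*) and none of 16 lysosomal hydrolases (smallest FDR 0.361, *MANBA*) was called. In 604 and 664 on D105, where 21.1% of all genes were called, *SDHD* was the 1 of 7 succinate dehydrogenase genes other than *SDHA* that passed (0.43, FDR = 0.0200), and the median of the 7 was 0.31, beside -0.02 for all genes. Among the glycolysis genes 2 were higher in the pair (*GPI*, 0.45, and *PFKL*, 0.36) and 3 lower (among them *HK3*, -1.52, and *HK2*, -1.28), with a median of -0.36. Of the 16 lysosomal hydrolases 1 was higher (*ARSA*, 0.76) and 5 were lower (among them *GLA*, -1.28, and *GALC*, -1.17), with a median of -0.37. Of the 14 retriever and CCC subunits 5 were higher (among them *COMMD6*, 1.06, and *COMMD7*, 0.69) and none was lower. These contrasts, which go in both directions, come from the same libraries as that of *SDHA*. The neutrophil and monocyte sums of the pair given above were low, and their part in these contrasts was not tested.

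A list of 25 other reference genes served for comparison. Of the 25, 5 had a CV of at most 0.10 over 46 libraries, led by the splicing factor subunit *SF3A1* (0.0668), and their median was 0.123. *SNRPD3* varied most (0.206). From D55 to D105, beside 20.7% of all genes called, 2 of 25 rose, among them *RAB7A* (0.17, FDR = 0.000722), and 3 fell, among them *EIF2B2* (-0.15, FDR = 0.00281). In 604 and 664 on D105, beside 21.1% of all genes called, 7 were higher and none lower, led by *SNRPD3* (0.82, FDR = 0.00187) and *UXT* (0.63, FDR = 0.00477). Among all tested genes the 5 with the smallest CV over 46 libraries were *DCAF8* (0.0394), *DDX23* (0.0398), *GANAB* (0.0436), *GLYR1* (0.0442) and *CUL4A* (0.0457), each below *YWHAZ*. They were picked for this value from 16487 genes, so the smallest values are in part the gain of the search.

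For each of the 10 genes the other gene with the most similar profile was taken by Pearson r of log2(CPM + 1) over the 46 libraries, which come from 23 heifers and share the depth and set effects described above. The highest was *ATP6V1B2* for *HPRT1* (r = 0.876), followed by *PHB2* for *SDHA* (0.871), *ARF1* for *GAPDH* (0.864), *CDK4* for *PPIA* (0.849) and *PARVG* for *ACTB* (0.792). For the other 5 genes the highest r was lower, with *NHLRC1* for *TBP* (0.685), *EIF4A3* for *ECD* (0.676), *THOC3* for *GUSB* (0.663), *LONP2* for *VPS35L* (0.658) and *TXNRD1* for *YWHAZ* (0.604).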

How the data were processed

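What the authors deposited are unnormalised counts of reads for each gene. After quality trimming, reads had been mapped to ARS-UCD1.2 by HISAT2 2.1.0 and assigned by HTSeq in its default union mode, which by default leaves out reads with several alignments. Counts of *ACTB*, *GAPDH*, *PPIA* and *YWHAZ*, whose families hold near-identical copies, are therefore uncertain in level. The HTSeq summary lines (36.5% to 48.6% of a table) were left out of library sizes. Gene lengths of this build were not used, so levels are not compared between genes. The Ensembl table does not pair identifiers with names and was not used.

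Counts were scaled with TMM, kept with filterByExpr (minimum count 10) and tested in edgeR 4.0.16 (R 4.3.3) by the quasi-likelihood F-test, with Benjamini-Hochberg adjustment over all genes tested. Only the compared libraries entered each fit. DESeq2 1.42.0 with its likelihood ratio test was an alternative. The fits were tested on simulated data. CVs and relations within the BACKUP libraries, and without 604, 664 and 637 together, were added after seeing the data. CVs used CPM with TMM factors from all 46 libraries. Each heifer gave a library on both days, so the number pairs them, and over genes their deviations from the group means correlated with a mean r of 0.53 (lowest of 23 heifers 0.28), against -0.02 between different heifers. Marker relations used 100000 permutations of the heifers. P-values of comparisons within a day rest on separate heifers with 1 library each. Day tests without the block, and the difference of day changes, treat both libraries of a heifer as separate, although they are correlated. Each SE was derived from the F-test, as the absolute log2 fold change over the square root of F. Intervals of 95% are the log2 fold change with normal limits of 1.96 SE. They are narrower than limits that use the degrees of freedom of the F-test. For *GAPDH* in IVP-Normal against AI on D105 they ran from -0.40 to -0.01. That interval leaves out 0, although the F-test did not pass even without adjustment. The intervals are therefore approximate, and calls rest on the F-test alone. The 10 genes and the lists were chosen with earlier results of these data known. Named genes were, per list and comparison, the 2 called genes with the largest change in each direction or else the smallest p, the 5 smallest CVs and the most similar profile of each gene. Values of some genes that this rule names are not reported here.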

Additional observations from a re-analysis of the deposited data

Results flagged for a closer look

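The level of each of the 10 genes was examined in each of the 6 combinations of day and group for a heifer far from the others by Dixon's criterion, 60 groups of values in all. Chance alone marks about 1 in 20 such groups, and 3 were found. *GAPDH* in IVP-LOS on D105 was far highest in heifer 637, at 1469 CPM with the other 8 between 673.7 and 876 CPM. *HPRT1* in AI on D105 was highest in heifer 546, at 81.1 CPM with the other 7 between 46.2 and 61.5 CPM. *PPIA* in AI on D105 was highest in heifer 533, at 588 CPM with the other 7 between 476 and 519 CPM. All 3 were on D105. Heifer 637 is the library with the highest neutrophil sum (14100 CPM), and the part of this in its *GAPDH* level was not tested.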

How the results depend on the processing

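Among 930 values of the 10 genes under the alternatives, 875 kept their sign and their side of the threshold, 42 changed sign with no call in either setting, 11 gained a call, 2 lost one and none of the called values reversed. Over all heifers, 0 of the 10 genes were called between days, beside 20.7% of all genes. With upper-quartile scaling 1 of 10 was called (*ACTB*), beside 22.1%. *ACTB* alone was also called without 604 and 664 (beside 20.5%) and without the D105 library of 637 (beside 19.8%). With heifer as a replicate block 2 of 10 were called (*ACTB* and *TBP*), beside 31.7%, and the same 2 without heifer 637, beside 29.8%. In AI heifers 0 of 10 were called, beside 9.95% of all genes. There 1 was called with upper-quartile scaling (*ACTB*, beside 11%), 1 with the block (*GAPDH*, beside 17.1%) and 2 with DESeq2 (beside 12.9%). Blocking changed no other call of the 10 genes. The *SDHA* call in 604 and 664 on D105 was kept under 8 alternatives and lost when either heifer was left out, where the count was 0 to 0 with 1 library in the pair, although without 604 the value itself was larger. The counts under the CV limit were 6 to 7 on D55, 5 to 6 on D105 and 4 to 6 over 46 libraries. Over all genes, DESeq2 called 748 between days in IVP-Normal (edgeR's quasi-likelihood test 374) and 322 in IVP-LOS (38), edgeR's likelihood ratio test 613 and 227, and the block 838 and 162. In IVP-LOS 12 were called without 604 and 664, and with the block but without 637, 138. Over all heifers the block called 5229 (without it 3408) and in AI 2603 (1517). For the pair on D105, 567 genes were called without 604, 725 without 664 and 1466 against the other 7 IVP-LOS heifers, against 3550. IVP-LOS against AI on D105 called 10 genes without 637, against 0. For the pair on D55 the 3 genes became 0 to 9, and for the 6 group comparisons edgeR's likelihood ratio test called 1 to 11 genes. The other scalings moved the median of all genes by under 0.1 (log2), while without a filter on low counts that of the pair on D105 was -0.13 instead of -0.02, and *SDHA* was then 0.35. For the fold of the test genes in 664, the geometric mean of the 8 common reference genes gave 2.77 for *TTF1* and 2.83 for *RSRC1*. The Ensembl alternative was not run, since its identifiers could not be matched to the 10 genes. With 2 heifers in the pair and 6 to 9 per group, smaller changes were not detectable, and a missing call does not show equal levels.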
